A study of Mus musculus with 13 samples.

Results

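The genes described here encode glycolysis, lactate handling and the entry of pyruvate into mitochondria. They were taken from a list by gene symbol, and all 38 listed genes were found among the 47937 genes of the count table. The RNA came from thymocytes sorted at the double negative (DN) stages DN3 and DN4, before and after β-selection, the checkpoint at which a newly made T cell receptor β chain is tested. The 13 libraries came from 7 C57BL/6 mice, 6 weeks old by the labels. Wt mice were WT;Lck-Cre+ and gave 3 DN3 libraries (WT05, WT46 and WT48) and 4 DN4 libraries (the same mice and WT40). KO-labelled mice were Opa1fl/fl;Lck-Cre+ and gave 3 DN3 and 3 DN4 libraries (KO45, KO49 and KO51). All 7 mice therefore carried Cre recombinase, driven by the Lck promoter in developing T cells, and the groups differed in the floxed allele of Opa1, whose product fuses the inner mitochondrial membrane.

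Glycolysis converts glucose to pyruvate in the cytosol. Pyruvate is then either reduced to lactate and exported, or carried into mitochondria and oxidised by the pyruvate dehydrogenase complex, which pyruvate dehydrogenase kinases switch off. Many of the steps can be run by alternative isozymes encoded by separate genes, and dividing thymocytes around β-selection are known for high glucose uptake.

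From DN3 to DN4, the lactate exporter gene Slc16a3, the enolase gene Eno3 and the platelet-type phosphofructokinase gene Pfkp rose in both Wt and KO-labelled mice. Slc16a3 had at most 6 counts in any DN3 library and was tested only because DN4 was high. The hexokinase gene Hk2 and the liver-type phosphofructokinase gene Pfkl fell in Wt mice, and in KO-labelled mice when the libraries of each mouse were paired. No gene of the list differed between KO-labelled and Wt libraries in DN3 (0 of 34 tested) or in DN4 (0 of 37 tested) at an adjusted p under 0.05. Among all genes tested, 0% of 12105 passed in DN3 and 0.0535% of 13084 in DN4, so the list was near all genes.

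The promoter windows of the 4 genes called in Wt mice whichever single library was left out are shown first, as examples from either direction. In the unpaired fit of KO-labelled mice, Hk2 and Pfkl were not called. Slc16a3 entered the test through DN4, and its calls with a library left out carry the same selection. Each sequence is the RefSeq window of GRCm38.p6 from 250 bases before to 50 bases after the annotated start, 5′ to 3′ on the strand of the gene. Capitals mark the motifs ACGTG and GCGTG, the letters at the core of the hypoxia response element, read on either strand (CACGT and CACGC on the other). Slc16a3 lies at chr11:120948817-120949116 on the plus strand and Eno3 at chr11:70656926-70657225 on the plus strand. Hk2 lies at chr6:82774405-82774704 and Pfkl at chr10:78009758-78010057, both on the minus strand.
Slc16a3: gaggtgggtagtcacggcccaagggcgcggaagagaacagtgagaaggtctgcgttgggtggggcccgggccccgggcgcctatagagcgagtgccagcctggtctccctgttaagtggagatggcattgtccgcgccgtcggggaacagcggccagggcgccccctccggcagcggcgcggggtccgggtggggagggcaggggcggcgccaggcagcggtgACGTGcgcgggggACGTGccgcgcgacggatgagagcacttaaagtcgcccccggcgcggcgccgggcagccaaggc
Eno3: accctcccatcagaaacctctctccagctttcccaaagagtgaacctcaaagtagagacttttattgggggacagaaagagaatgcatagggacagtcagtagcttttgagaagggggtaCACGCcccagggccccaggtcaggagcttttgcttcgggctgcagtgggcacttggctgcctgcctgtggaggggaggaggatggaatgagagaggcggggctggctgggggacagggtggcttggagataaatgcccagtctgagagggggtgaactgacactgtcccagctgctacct
Hk2: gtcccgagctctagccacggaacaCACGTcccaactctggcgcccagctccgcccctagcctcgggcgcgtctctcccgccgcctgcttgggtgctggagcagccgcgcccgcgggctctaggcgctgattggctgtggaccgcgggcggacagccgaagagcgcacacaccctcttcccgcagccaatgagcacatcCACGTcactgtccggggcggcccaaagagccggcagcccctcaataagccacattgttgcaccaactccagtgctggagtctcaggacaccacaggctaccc
Pfkl: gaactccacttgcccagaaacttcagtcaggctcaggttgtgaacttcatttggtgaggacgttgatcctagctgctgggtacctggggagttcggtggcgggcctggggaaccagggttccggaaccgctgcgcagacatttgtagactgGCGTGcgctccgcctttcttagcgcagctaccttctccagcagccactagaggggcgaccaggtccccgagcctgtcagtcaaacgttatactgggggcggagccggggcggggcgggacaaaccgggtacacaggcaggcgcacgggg

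The windows of Slc16a3, which rose, and of Hk2, which fell, each held 2 matches of ACGTG. Those of Eno3, which rose, and Pfkl, which fell, each held 1 match of GCGTG. Of the other genes called in Wt mice, all of which rose, Slc2a1 held 1 match of each motif in its window, and Pfkp held 4 and Eno1 2 matches of GCGTG. Windows were found for 36 of the 38 genes, 56 windows in all, and Slc2a3 and Pdp1 had none in the table. ACGTG stood in 41.1% of the 56 windows and in 19.6% of all 32851 windows of this length. GCGTG stood in 53.6% and 32.4%, and the E-box CACGTG, which contains ACGTG on both strands, in 10.7% and 7.15%. Some windows of the same gene overlap. The motifs all hold the letters CG, and the windows compared were not matched for base composition. These shares are therefore a description of sequence and not of binding.

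Libraries held 5926848 to 14148661 counts. WT05 in DN3 stood apart, as 11 ribosomal RNA-like genes took 40.5% of its counts, against 0.398% to 1.62% in the other libraries, and left 3529305 counts. Levels are given as CPM, counts scaled to the library size after TMM normalization. Opa1 itself lay between 76.9 and 111.5 CPM over the 13 libraries and overlapped between the genotypes, so that gene-level counts do not check the deletion and the genotype rests on the labels. The summed CPM of the DN3 markers Il2ra, Ptcra, Notch1, Hes1 and Dtx1 was 2458 to 3259 in DN3 and 508 to 748 in DN4. DN4 libraries also held transcripts of other cells. The summed CPM of 5 B cell markers (Cd79a, Cd79b, Ms4a1, Ebf1 and Pax5) was 20.7 to 49.9 in DN3 and 165 to 2138 in DN4, and that of Cd4, Cd8a and Cd8b1, which mark immature single positive (ISP) and double positive (DP) thymocytes, was 26.9 to 78.8 and 174 to 2446. Markers of NK and innate lymphoid cells (Ncr1, Klrb1c and Eomes) summed to at most 0.133 CPM in DN3 and to 4.38 to 11.9 CPM in DN4. Erythroid markers reached at most 6.18 CPM. Gamma delta T markers summed to 503 to 1397 CPM, a sum of genes that moved apart. Trdc and Sox13 were called higher in DN4 in Wt mice, and Tcrg-C1 was called lower in both genotypes. The sums of other markers were lower in DN4 without overlap: stromal ones summed to 68.3 to 162 CPM in DN3 and 20.9 to 36.7 CPM in DN4, and myeloid ones to 22.0 to 31.3 and 11.2 to 18.2 CPM. Of their genes, the stromal Epcam and Pdgfrb and the myeloid Lyz2 were called lower in both genotypes. The myeloid Fcgr3, S100a8 and S100a9 and the stromal Col1a2 went the other way, with 0 counts in all DN3 libraries and some in DN4. In such bulk samples, fewer cells of a type and less RNA per cell cannot be told apart, and the part of these markers in each stage difference was not tested.

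Per kilobase of merged exons, and averaged over the 13 libraries, the highest level of the list was that of Gapdh, which encodes glyceraldehyde-3-phosphate dehydrogenase, at 347 CPM per kilobase. Ldha, the lactate dehydrogenase subunit that favours lactate, followed at 222, and Pkm, the pyruvate kinase gene, at 140. Pgk1 (phosphoglycerate kinase) was at 98.9, Tpi1 (triose phosphate isomerase) at 82.3, Aldoa (aldolase A) at 76.8 and Gpi1 (glucose-6-phosphate isomerase) at 63.8 CPM per kilobase. The genes of entry and of the first committed step lay lower, with Pfkl at 14.9, Hk1 at 14.5, Slc2a1 at 6.84, Pfkp at 6.71 and Hk2 at 4.12. At the bottom were Slc16a3 at 0.568, Eno2 at 0.417 and Hk3 at 0.160 CPM per kilobase. Pdk4, a pyruvate dehydrogenase kinase gene induced on fasting, had 0 counts in 12 libraries and 1 count in the DN4 library of WT05, and was tested in no comparison.

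The first comparison asked which of these genes changed from DN3 to DN4. In Wt mice, 36 genes had enough counts to be tested by the quasi-likelihood test of edgeR, with p-values adjusted over all genes (Benjamini-Hochberg). Of these, 5 were higher in DN4 (13.9%) and 2 lower (5.56%), where 13.4% of all 12691 genes tested were higher and 9.43% lower. In KO-labelled mice, 37 were tested, and 7 were higher (18.9%) and 2 lower (5.41%), where 11.2% of all 12580 genes were higher and 7.34% lower. The shares of the list were thus near those of all genes in Wt mice. The median log2 fold change over the genes of the list was -0.02 in Wt and -0.05 in KO-labelled mice, beside -0.03 and -0.02 over all genes. The median size of the change was 0.23 and 0.25 for the list, beside 0.32 and 0.29 for all genes.

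The mice that gave both libraries allowed a paired fit with the mouse as a replicate block. In Wt mice it called 5 genes higher and 2 lower of 36, where 12.1% of all genes were higher and 6.53% lower; Slc2a3 was called in this fit and Eno1 was not. In KO-labelled mice it called 8 higher and 9 lower of 37, where 18.9% of all genes were higher and 16.9% lower. The added genes in KO-labelled mice were Hk2, Pfkl, Tpi1, Pgk1, Pgam1, Ldha and Dlat, all lower, and Ldhb, which was higher. Over the 6 mice with both libraries, 8 genes were higher in DN4 in every mouse (Slc2a1, Slc2a3, Pfkp, Bpgm, Eno1, Eno2, Eno3 and Slc16a3) and 8 were lower in every mouse (Hk2, Gpi1, Pfkl, Pfkfb3, Aldoc, Tpi1, Dlat and Pdk1). Of all 13361 genes tested in the 13 libraries, 21.8% were higher and 17.6% lower in every mouse, where the list had 21.6% each way (8 of 37 tested). The DN3 and DN4 ranges did not overlap for 10 higher (27.8%) and 5 lower (13.9%) of 36 genes in Wt mice, beside 20% and 15% of all genes tested. In KO-labelled mice these were 8 higher (21.6%) and 4 lower (10.8%) of 37, beside 22% and 16.7% of all genes. By these counts too, the list was near all genes.

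**Figure D1:**
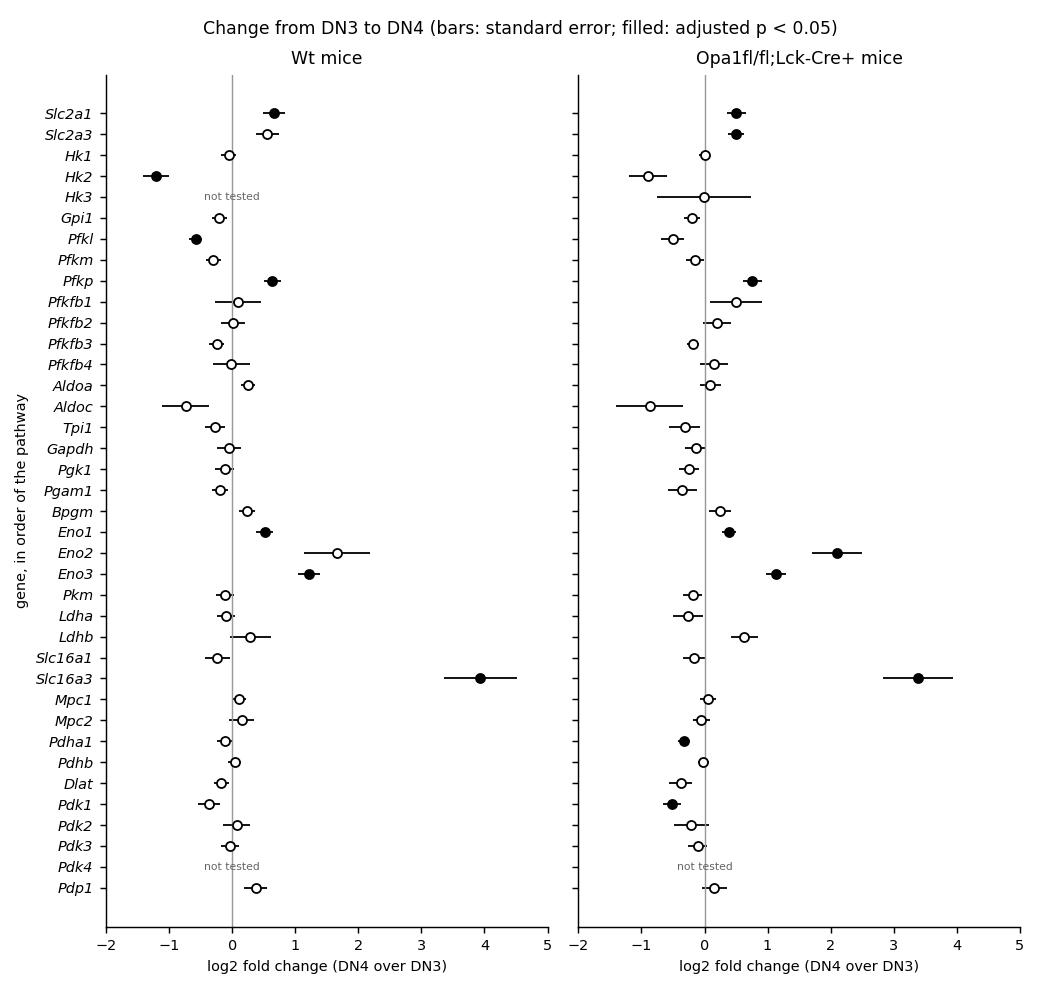
Log2 fold change from DN3 to DN4 (x axis) of each gene of the list in pathway order (y axis), in Wt mice (left) and KO-labelled mice (right). Points are fitted values with their standard error, and filled points passed an adjusted p of 0.05. Slc16a3 lies farthest to the right in both panels at 3.93 and 3.39, Hk2 farthest to the left at -1.21 and -0.90, and most other genes lie near 0.

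At the entry of glucose, the transporter gene Slc2a1 rose in both genotypes and Slc2a3 in KO-labelled mice. Slc2a1, which encodes the transporter GLUT1 (chromosome 4 of GRCm38 from 119108711 to 119137983), had 17.2, 18.9 and 19.4 CPM in the Wt DN3 libraries of WT05, WT46 and WT48, and 33.5, 24.6, 26.1 and 35.7 CPM in the Wt DN4 libraries of WT05, WT40, WT46 and WT48. In KO45, KO49 and KO51 it had 20.4, 17.4 and 17.8 CPM in DN3 and 25.3, 28.0 and 27.4 CPM in DN4. Every DN4 library was above every DN3 library. The log2 fold change was 0.66 in Wt (standard error, SE, 0.173, adjusted p = 0.0254) and 0.51 in KO-labelled mice (SE 0.149, adjusted p = 0.04995). The Wt call was lost without the DN3 library of WT46 or WT48 or the DN4 library of WT05 (adjusted p up to 0.0753), with library totals (0.110) and in a paired fit of WT46 and WT48 alone (0.0923). Of the KO fits with a library left out, the one without the DN3 library of KO45 alone kept the call (adjusted p up to 0.140), and it was also lost with library totals (0.0511) and without a filter (0.0666).

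Slc2a3, which encodes the high-affinity transporter GLUT3 (chromosome 6 from 122727809 to 122801640), had 33.6, 24.7 and 23.4 CPM in Wt DN3 and 46.7, 31.9, 40.1 and 42.5 CPM in Wt DN4 libraries, in the same order of mice. The Wt stages overlapped, since DN3 of WT05 lay above DN4 of WT40. In KO45, KO49 and KO51 it had 22.9, 22.9 and 24.3 CPM in DN3 and 32.4, 34.1 and 34.2 CPM in DN4, without overlap. The log2 fold change was 0.55 in Wt (SE 0.184, adjusted p = 0.0620; 0.0308 in the paired fit) and 0.50 in KO-labelled mice (SE 0.121, adjusted p = 0.0251, kept with a library left out only where that was the DN3 library of KO45, and otherwise up to 0.0931). The share of Slc2a1 in the summed level per kilobase of the 2 transporters was 58.6% ± 6.26 in Wt DN3 and 60.5% ± 2.57 in Wt DN4 libraries (SD, n = 3 and 4).

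The hexokinases, which phosphorylate glucose and trap it in the cell, shifted away from Hk2. Hk2 (chromosome 6 from 82725025 to 82774454), the inducible form, had 50.8, 29.4 and 33.1 CPM in Wt DN3 libraries and 14.8, 16.0, 18.9 and 16.1 CPM in Wt DN4 libraries. All 4 DN4 libraries were below all 3 DN3 libraries, and the highest DN3 value was that of WT05, the library with many ribosomal RNA-like counts. Its log2 fold change was -1.21 (SE 0.205, adjusted p = 0.00414) and stayed between -1.36 and -0.96, always called, with each library left out. In KO45, KO49 and KO51, Hk2 had 21, 31.9 and 38.4 CPM in DN3 and 10.7, 17.6 and 21.4 CPM in DN4. The KO groups overlapped, as the DN4 value of KO51 lay above the DN3 value of KO45, but Hk2 was lower in DN4 in each of the 3 mice. Here the log2 fold change was -0.90 (SE 0.299, adjusted p = 0.0741) without and -0.91 (SE 0.135, adjusted p = 8.2e-04) with the mouse as a block, and DESeq2 called it without the block (0.0221).

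Hk1, the constitutive hexokinase gene, lay between 110 and 135 CPM in all 13 libraries, with a log2 fold change of -0.06 in Wt and 0.00 in KO-labelled mice. The sign of the KO value turned when single libraries were left out, between -0.04 and 0.01. Hk3, mostly a myeloid gene, had at most 17 counts in any library, passed the filter only in the stage comparison of KO-labelled mice, in the DN4 comparison of genotypes and in the interaction of both, and was called in 0 of these. Of the summed hexokinase level per kilobase, the share of Hk2 was 29.9% ± 8.61 in Wt DN3 and 15.9% ± 1.84 in Wt DN4 libraries (SD, n = 3 and 4), and 25.7% ± 5.22 and 15.7% ± 4.53 in KO-labelled libraries (SD, n = 3 each). The share of Hk1 was 69.8% and 83.1% in Wt, and 73.3% and 83.2% in KO-labelled libraries. With the length of the longest transcript in place of all exons, the Hk2 shares were 19.0% and 9.36% in Wt, lower throughout but again smaller in DN4. Gpi1, the next enzyme of the chain, was lower in DN4 in 6 of 6 mice, by 0.004 to 0.40 on the log2 scale, and was not called.

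Phosphofructokinase, the committed step of glycolysis, is a tetramer of subunits from 3 genes, and their proportions changed. Pfkl (chromosome 10 from 77986947 to 78010083), the liver type, had 115, 135 and 130 CPM in Wt DN3 libraries of WT05, WT46 and WT48 and 88.8, 79.8, 89.9 and 87.4 CPM in Wt DN4 libraries of WT05, WT40, WT46 and WT48. In KO45, KO49 and KO51 it had 100, 113 and 117 CPM in DN3 and 57.3, 87.1 and 92.6 CPM in DN4. Neither genotype showed overlap between the stages. DN4 over DN3, the log2 fold change was -0.58 in Wt (SE 0.101, adjusted p = 0.00465), called with each library left out but not when libraries were scaled by their totals (adjusted p = 0.416). In KO-labelled mice it was -0.50 (SE 0.183, adjusted p = 0.0988; 0.00692 in the paired fit).

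Pfkp (chromosome 13 from 6579768 to 6648777), the platelet type, moved the other way. It had 80.9, 62.3 and 63.7 CPM in Wt DN3 and 109, 119, 113 and 94.5 CPM in Wt DN4 libraries, and 50.7, 67.7 and 75.3 CPM in DN3 and 105, 118 and 110 CPM in DN4 of KO45, KO49 and KO51. Every DN4 library was above every DN3 library. Pfkp had a log2 fold change of 0.64 in Wt (SE 0.133, adjusted p = 0.0103) and 0.76 in KO-labelled mice (SE 0.146, adjusted p = 0.00978). The Wt call was lost without the DN3 library of WT46 or WT48 (adjusted p up to 0.0514), and the KO call held with each library left out (up to 0.0461). Pfkm, the muscle type, was lower in DN4 in 5 of 6 mice, with log2 fold changes of -0.30 and -0.15 that did not pass.

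Per kilobase, Pfkp made up 13.5% ± 2.68 of the 3 subunit transcripts in Wt DN3 and 24.7% ± 1.33 in Wt DN4 libraries (SD, n = 3 and 4), and 13.3% ± 2.30 and 24.7% ± 1.96 in KO-labelled libraries (SD, n = 3 each). Its share in single libraries was 10.7% to 16.5% in DN3 and 22.5% to 26.2% in DN4. Pfkl went from 49.5% to 39.5% in Wt and from 45.8% to 34.8% in KO-labelled libraries, and Pfkm kept 37.0% and 35.8% in Wt and 40.9% and 40.5% in KO-labelled libraries. Per kilobase Pfkl stayed above Pfkp in every group mean.

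The 4 Pfkfb genes encode the bifunctional enzymes that make and remove fructose-2,6-bisphosphate, the activator of phosphofructokinase, and 0 of the 4 were called at either stage comparison. Pfkfb3, the form with the highest kinase activity, had the highest level per kilobase, at 64.2% to 67.8% of the family in the Wt and 61.8% to 68.4% in the KO-labelled group means. It lay between 79.4 and 92.8 CPM in Wt DN3 and between 64.2 and 78.5 CPM in Wt DN4, and between 75.0 and 78.7 and between 64.6 and 71.4 CPM in KO-labelled libraries, lower in DN4 in 6 of 6 mice. Pfkfb1 had at most 6.13 CPM, Pfkfb2 10.3 to 17.1 CPM and Pfkfb4 8.87 to 20.6 CPM in any library.

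**Figure D2:**
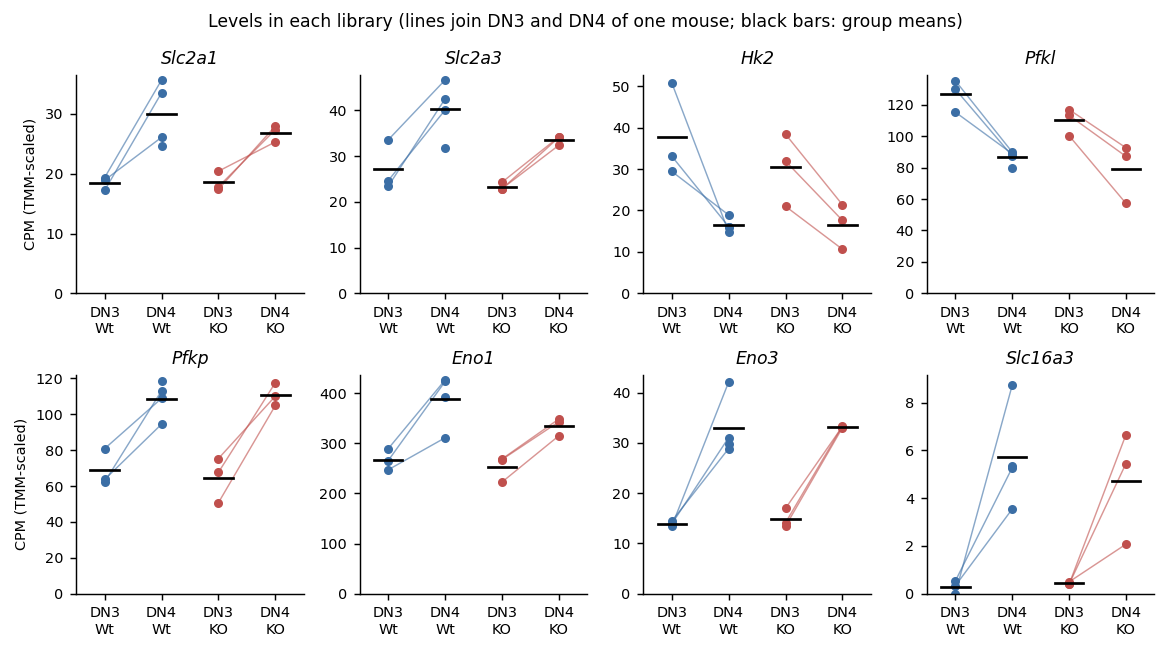
CPM on TMM-scaled library sizes (y axis, from 0) of 8 genes in each library, by stage and genotype (x axis). Points are libraries (Wt blue, KO-labelled red), lines join DN3 and DN4 of the same mouse, and black bars are group means. Slc2a1, Pfkp, Eno1, Eno3 and Slc16a3 have every DN4 point above every DN3 point of the same genotype, Pfkl has every DN4 point below, and Hk2 falls along each line but overlaps between the KO-labelled groups.

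**Figure D3:**
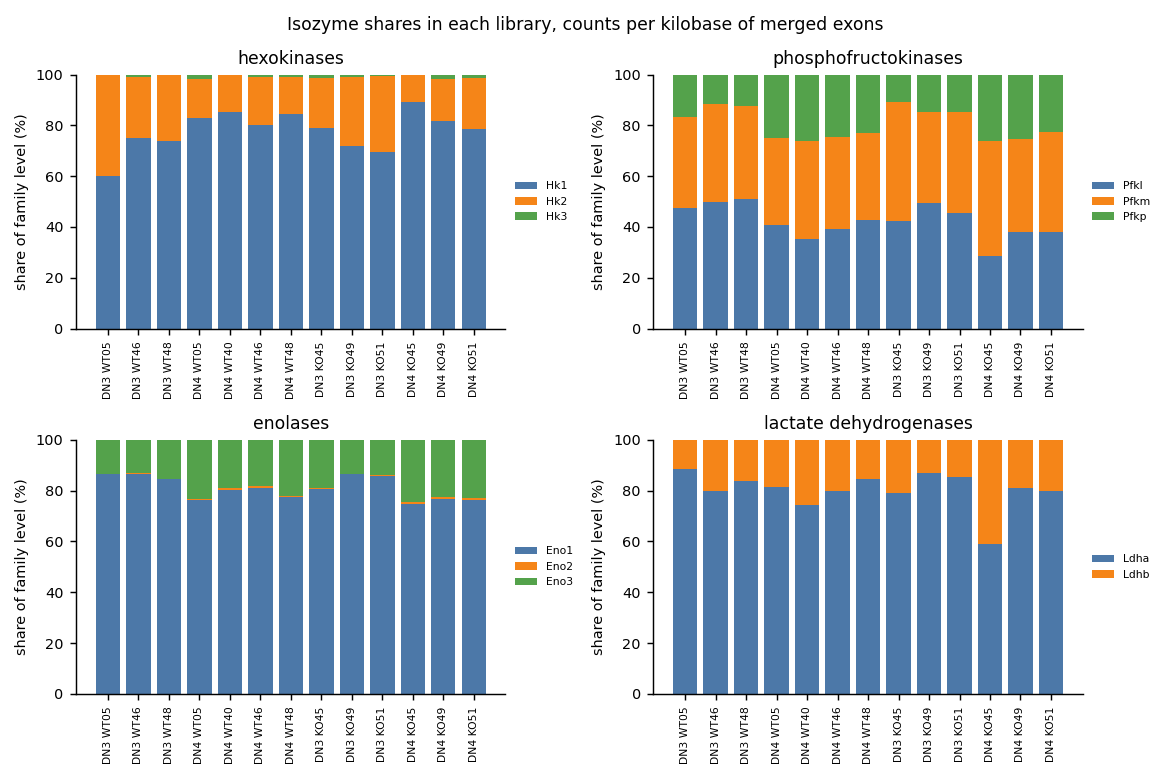
Share (y axis, percent) of each isozyme in the summed level per kilobase of merged exons of its family, in each of the 13 libraries (x axis). Stacked colours are the genes of the family. Hk2 takes 19.8% to 39.8% in DN3 and 10.8% to 19.8% in DN4, Pfkp 10.7% to 16.5% and 22.5% to 26.2%, Eno3 12.9% to 19.0% and 18.3% to 24.4%, and Ldhb reaches 40.9% in DN4 of KO45.

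In the lower part of the pathway, aldolase A, triose phosphate isomerase, glyceraldehyde-3-phosphate dehydrogenase, phosphoglycerate kinase, phosphoglycerate mutase and pyruvate kinase carry the carbon from fructose-1,6-bisphosphate to pyruvate. Without the block, 0 of Aldoa, Tpi1, Gapdh, Pgk1, Pgam1 and Pkm were called in either genotype. Gapdh had 1212, 1623 and 1585 CPM in the DN3 and 1366, 1633, 1676 and 1104 CPM in the DN4 Wt libraries, and 1337, 1496 and 1552 CPM in DN3 and 1044, 1425 and 1576 CPM in DN4 of KO45, KO49 and KO51. The stages overlapped in both genotypes, with log2 fold changes of -0.05 and -0.14. Aldoa, at 169 to 270 CPM, made up 97.9% to 99.2% of the aldolase level in all group means, and Aldoc, the form of brain, had at most 5.13 CPM.

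With the mouse as a block, 3 of these 6 genes fell in KO-labelled mice, in a fit that called 16.9% of all genes lower. For Tpi1 it gave a log2 fold change of -0.36 (SE 0.106, adjusted p = 0.0262), Pgk1 of -0.26 (SE 0.0791, adjusted p = 0.0320) and Pgam1 of -0.36 (SE 0.105, adjusted p = 0.0243). In Wt mice the same fit gave -0.33 for Tpi1, -0.17 for Pgk1 and -0.24 for Pgam1, with adjusted p-values of 0.271 to 0.584. Whether the KO and Wt changes differed was tested only as the interaction, which called 0 genes. Of the stretches of 50 bases in their annotated transcripts, 53.9% for Pgk1, 36.2% for Pgam1, 25.8% for Pkm and 24.7% for Gapdh also occur in other genes, pseudogenes among them, so that these counts are less certain. Bpgm, which makes 2,3-bisphosphoglycerate, was higher in DN4 in 6 of 6 mice, by 0.09 to 0.52 on the log2 scale, and was not called.

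The genes of this chain were low together in some libraries. Over 9 genes from Gpi1 to Ldha (Gpi1, Aldoa, Tpi1, Gapdh, Pgk1, Pgam1, Eno1, Pkm and Ldha), the DN4 library of KO45 was the lowest of 7 for 8 genes, and the DN3 library of KO45 the lowest of 6 for 7 genes. WT05 in DN3 was the lowest for Gpi1 and Gapdh and the second lowest for 4 genes. The DN4 library of WT48 was the second lowest for 7 genes and the lowest for Eno1. The summed CPM of the 9 genes was 3784 in DN3 of KO45 and 4046 in DN3 of WT05, against 4526 to 4785 in the other 4 DN3 libraries. It was 3163 in DN4 of KO45 and 3622 in DN4 of WT48, against 4194 to 4960 in the other 5 DN4 libraries. The DN4 libraries of KO45 and WT48 stood at opposite ends of the marker sums. KO45 had the highest ISP and DP sum, 2446, and WT48 the lowest, 174, together with the highest B cell sum, 2138. The part of the markers in these low values was not tested.

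**Figure D4:**
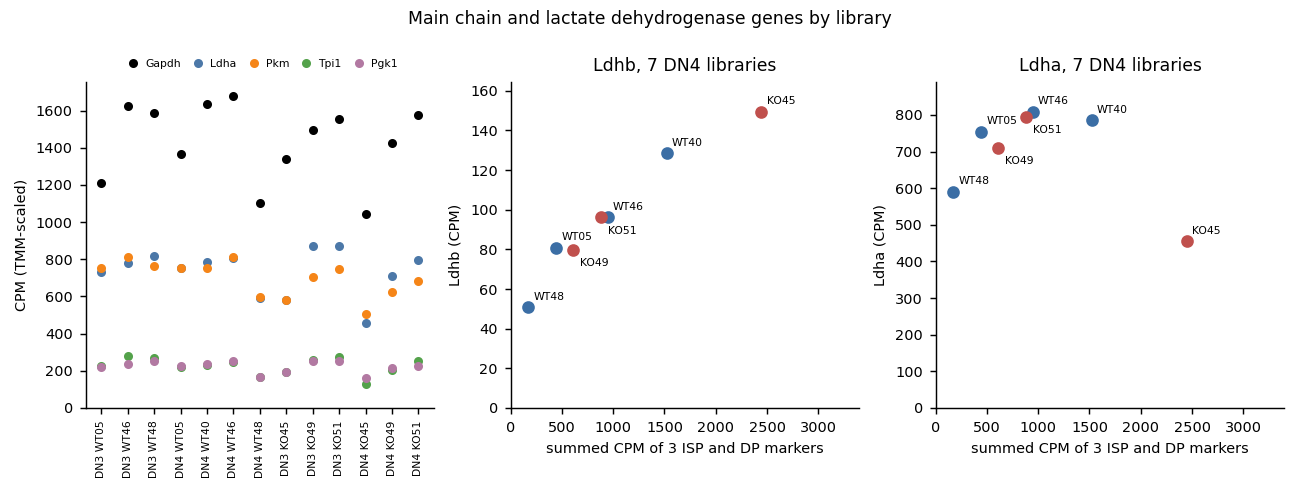
Left, CPM (y axis, from 0) of Gapdh, Ldha, Pkm, Tpi1 and Pgk1 in each of the 13 libraries (x axis). Middle and right, CPM of Ldhb and Ldha (y axes, from 0) against the summed CPM of Cd4, Cd8a and Cd8b1 (x axes) in the 7 DN4 libraries, Wt in blue and KO-labelled in red. Ldhb runs from 50.7 CPM in WT48 to 149.5 in KO45 in nearly the order of the marker sum, and Ldha is lowest, at 455 CPM, in KO45.

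The enolases, which make phosphoenolpyruvate, all had higher values in DN4. Eno1 (chromosome 4 from 150236721 to 150248879), the ubiquitous form, had 265, 289 and 247 CPM in Wt DN3 and 423, 391, 426 and 311 CPM in Wt DN4 libraries, and 222, 268 and 267 CPM in DN3 and 315, 348 and 343 CPM in DN4 of KO45, KO49 and KO51. The stages did not overlap in either genotype. Eno1 had log2 fold changes of 0.51 in Wt (SE 0.139, adjusted p = 0.0302; 0.0755 in the paired fit) and 0.39 in KO-labelled mice (SE 0.111, adjusted p = 0.0468). Both calls were near the threshold: 6 of 7 Wt fits with a library left out lost the call (adjusted p up to 0.111), with WT48 in DN4 the exception, as did 6 of 6 KO fits (up to 0.163). The Wt call was also lost with library totals and in a paired fit of WT46 and WT48 alone (up to 0.178). The KO call was also lost without a filter and with at least 10 counts in every library (up to 0.0524). Other genes share 26.0% of the 50-base stretches of Eno1, among them the copy Eno1b, which was not called.

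Eno3 (chromosome 11 from 70657202 to 70662513), known as the muscle enolase, shares 0% of its 50-base stretches with other genes and rose more. It had 13.4, 13.9 and 14.4 CPM in Wt DN3 and 42.1, 29.7, 31.0 and 28.9 CPM in Wt DN4 libraries, and 17.0, 13.4 and 14.1 CPM in DN3 and 33.2, 33.0 and 33.3 CPM in DN4 of the KO-labelled mice. The lowest DN4 value, 28.9 CPM, lay above the highest DN3 value, 17.0 CPM. Eno3 had log2 fold changes of 1.21 in Wt (SE 0.171, adjusted p = 0.00184) and 1.13 in KO-labelled mice (SE 0.154, adjusted p = 0.00252), and the call held with each library left out in both genotypes. Eno2, the neuronal form, was scarce, with 1 to 15 counts in DN3 and 17 to 46 counts in DN4 libraries. It rose in KO-labelled mice, from 0.988, 0.399 and 0.784 CPM to 3.29, 3.18 and 3.48 CPM, or by 2.10 on the log2 scale (SE 0.392, adjusted p = 0.00877). Eno2 entered the test through its DN4 counts and was not tested where every library had to hold at least 10. In Wt mice it went from 0.292, 1.33 and 0.660 CPM to 2.08, 4.29, 2.99 and 1.72 CPM, without overlap, and its log2 fold change of 1.66 did not pass (SE 0.527, adjusted p = 0.0531).

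Eno3 went from 13.9% ± 1.23 to 20.7% ± 2.52 of the enolase level per kilobase in Wt (SD, n = 3 and 4) and from 15.5% ± 3.09 to 23.3% ± 1.0 in KO-labelled libraries (SD, n = 3 each), while Eno1 went from 85.9% to 78.7% and from 84.3% to 75.9%. In KO-labelled mice the DN3 share of KO45, 19.0%, stood above the 13.4% and 14.0% of the other mice. With the longest transcript as the length, the shares of Eno3 were 6.34% and 9.89% in Wt and 7.14% and 11.3% in KO-labelled libraries, so the size of the share and of its rise depends on the length used, and its direction was the same with both.

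Pyruvate kinase comes as the M1 and M2 isoforms, spliced from the same gene, which counts per gene cannot tell apart. Pkm (chromosome 9 from 59656368 to 59679375) had 750, 811 and 763 CPM in Wt DN3 and 755, 753, 809 and 599 CPM in Wt DN4 libraries. In KO45, KO49 and KO51 it had 578, 705 and 750 CPM in DN3 and 503, 624 and 681 CPM in DN4. The stages overlapped in both genotypes, with log2 fold changes of -0.11 and -0.19.

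Lactate dehydrogenase is assembled from the subunits LDHA and LDHB, the latter favouring pyruvate. Ldha (chromosome 7 from 46841475 to 46855627) had 733, 781 and 818 CPM in Wt DN3 and 755, 785, 809 and 591 CPM in Wt DN4 libraries, and 580, 872 and 872 CPM in DN3 and 455, 710 and 795 CPM in DN4 of KO45, KO49 and KO51. The stages overlapped. Its log2 fold changes were -0.11 in Wt and -0.26 in KO-labelled mice, where the paired fit called it (-0.28, SE 0.0910, adjusted p = 0.0363).

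Ldhb (chromosome 6 from 142490249 to 142507957) varied between DN4 libraries, from 50.7 CPM in WT48 to 149.5 CPM in KO45, and had 45.5 to 93.9 CPM in DN3. In KO-labelled mice it rose from 72.1, 62.1 and 71.2 CPM to 149.5, 79.7 and 96.2 CPM without overlap, which passed in the paired fit of edgeR (log2 fold change 0.60, SE 0.123, adjusted p = 0.00504) and by DESeq2 (0.0344) but not in edgeR's fit without the block (0.63, adjusted p = 0.0817). In Wt mice the stages overlapped and the log2 fold change was 0.29 (SE 0.325, adjusted p = 0.578). The level of Ldhb moved with the summed ISP and DP markers of the DN4 libraries. The sums were 2446 in KO45, 1521 in WT40, 947 in WT46 and 881 in KO51, where Ldhb was 149.5, 129, 96.3 and 96.2 CPM. They were 607 in KO49, 442 in WT05 and 174 in WT48, where Ldhb was 79.7, 80.8 and 50.7 CPM. The B cell sums of the DN4 libraries ran nearly the opposite way. They were 747, 245.5, 311 and 165 CPM in KO45, WT40, WT46 and KO51, and 1279, 1161 and 2138 CPM in KO49, WT05 and WT48. The part of ISP and DP cells or of B cells in the level was not tested. In DN3 no such order with the ISP and DP sum was seen. WT46 had the highest Ldhb, 93.9 CPM, with a sum of 55.8, and KO49 the highest sum, 78.8, with 62.1 CPM of Ldhb. The share of Ldhb per kilobase was 13% to 20.8% in KO-labelled DN3 libraries, 19.1% and 20.3% in DN4 of KO49 and KO51, and 40.9% in DN4 of KO45. Other genes share 21% of its 50-base stretches.

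Among the monocarboxylate transporters, which export lactate with a proton, Slc16a3 rose most of all genes of the list. It encodes MCT4, the low-affinity exporter of glycolytic cells (chromosome 11 from 120948480 to 120960868), and shares 0% of its 50-base stretches with other genes. In DN3 it had 0, 6 and 3 counts in WT05, WT46 and WT48 and 6, 3 and 4 counts in KO45, KO49 and KO51, which is 0 to 0.530 CPM. In DN4 it had 105, 55, 67 and 35 counts, or 8.73, 5.36, 5.28 and 3.54 CPM, in WT05, WT40, WT46 and WT48, and 29, 79 and 67 counts, or 2.07, 5.45 and 6.67 CPM, in KO45, KO49 and KO51. The lowest DN4 library stood above the highest DN3 library. No DN3 library reached the minimum of 10 counts, so that Slc16a3 was tested only because DN4 was high, and with at least 10 counts asked of every library it was not tested at all.

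The log2 fold change of Slc16a3 was 3.93 in Wt (SE 0.578, adjusted p = 0.00221) and 3.39 in KO-labelled mice (SE 0.556, adjusted p = 0.00551), and the call held with each library left out. The size rests on few DN3 counts and is not exact. It stayed between 3.65 and 4.56 in Wt and between 3.05 and 3.72 in KO-labelled mice with each library left out. In KO51, the DN4 library with the lowest B cell sum (165 CPM), Slc16a3 was at 6.67 CPM, and in WT48, with the highest (2138 CPM), at 3.54 CPM. It was highest in WT05, at 8.73 CPM with a B cell sum of 1161, and lowest in KO45, at 2.07 CPM with a B cell sum of 747 and the highest ISP and DP sum. The part of other cells in the level was not tested.

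Slc16a1, which encodes the more widely expressed MCT1, had 242, 168 and 201 CPM in Wt DN3 and 163, 207, 208 and 126 CPM in Wt DN4 libraries, overlapping between the stages, with log2 fold changes of -0.23 in Wt and -0.16 in KO-labelled mice. It remained the main transporter of the pair per kilobase. Slc16a3 went from 0.133% ± 0.131 to 2.69% ± 1.07 of their summed level in Wt (SD, n = 3 and 4) and from 0.174% ± 0.0667 to 1.89% ± 0.703 in KO-labelled libraries (SD, n = 3 each).

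At the entry of pyruvate into mitochondria and its oxidation, few changes passed. Mpc1 and Mpc2, the subunits of the mitochondrial pyruvate carrier, lay at 25.1 to 33.3 CPM and 17.2 to 31.3 CPM and were not called. Of the pyruvate dehydrogenase complex, Pdhb (E1 beta) lay at 109 to 134 CPM and was not called. Pdha1, the E1 alpha subunit that the kinases phosphorylate (X chromosome from 160122209 to 160138413), had 240, 253 and 252 CPM in DN3 and 206, 202 and 199 CPM in DN4 of KO45, KO49 and KO51, without overlap. It fell by 0.32 on the log2 scale in these mice (SE 0.0913, adjusted p = 0.0442), a call lost with any library left out (adjusted p up to 0.142). The call was also lost without a filter, with at least 10 counts in every library and in the joint fit of the 13 libraries (up to 0.0972). It was kept in the paired fit of edgeR (0.00966). In Wt mice Pdha1 had 216, 243 and 239 CPM in DN3 and 231, 240, 214 and 185 CPM in DN4, with overlap and a log2 fold change of -0.12. Dlat, the E2 subunit, had 57.8, 80.4 and 79.3 CPM in DN3 and 44.6, 58.2 and 66.7 CPM in DN4 of KO45, KO49 and KO51, lower in each mouse, and was called by edgeR in the paired fit and not without the block (log2 fold change -0.39, SE 0.0943, adjusted p = 0.0112).

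Of the kinases, Pdk1 (chromosome 2 from 71873224 to 71903858) was lower in DN4 in 6 of 6 mice. It had 172, 144 and 144 CPM in DN3 and 124, 93.4 and 111 CPM in DN4 of KO45, KO49 and KO51, without overlap, and fell by 0.52 on the log2 scale (SE 0.140, adjusted p = 0.0384, lost in 5 of 6 fits with a library left out, up to 0.123, and kept without the DN4 library of KO45). The call was also lost with library totals and in the joint fit of the 13 libraries (up to 0.0644), and kept in the paired fit of edgeR (0.00147). In Wt mice it had 112, 160 and 146 CPM in DN3 and 92.7, 136, 116 and 95.4 CPM in DN4, with overlap, and its log2 fold change of -0.37 did not pass (SE 0.173, adjusted p = 0.165). Pdk2 at 12.0 to 25.6 CPM and Pdk3 at 31.7 to 51.6 CPM were not called, nor was Pdp1, the phosphatase that switches the complex on again, at 13.5 to 26.2 CPM. Pdp1 was higher in DN4 than in DN3 in 5 of 6 mice. Per kilobase, Pdk1 made up 44.8% of the kinase level in Wt DN3 and 38.6% in Wt DN4, and 48.4% and 41.9% in KO-labelled libraries. Pdk3 made up 42.4% and 46% in Wt and 37.4% and 42.6% in KO-labelled libraries. The order of the pair varied between libraries of a group and depended on the length used, since by the longest transcript Pdk1 led in DN4 too, with 42.8% against 41.2% in Wt and 46.1% against 37.9% in KO-labelled libraries.

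The second comparison asked whether the list differed between KO-labelled and Wt libraries. In DN3, 0 of 34 genes tested passed (0% of all 12105 genes passed), and 0 had an unadjusted p under 0.05, where 1.39% of all genes did. Hk3, Eno2, Slc16a3 and Pdk4 had too few counts there. In DN4, 0 of 37 passed, where 0.0535% of all 13084 genes passed, and again 0 had an unadjusted p under 0.05, where 5.46% of all genes did. DESeq2's Wald test also called 0 genes of the list in either stage. The median size of the log2 fold change over the list was 0.09 in DN3 and 0.12 in DN4, beside 0.14 and 0.14 over all genes, and the smallest unadjusted p by edgeR's quasi-likelihood test was 0.134 (DN3) and 0.0807 (DN4).

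The 5 genes of the list with the smallest p in DN3 were Pfkl, Aldoc, Pkm, Slc2a3 and Pfkfb3. Their log2 fold changes, KO-labelled over Wt, were -0.21 (SE 0.129), -0.55 (SE 0.355), -0.20 (SE 0.158), -0.21 (SE 0.180) and -0.14 (SE 0.124), and edgeR's adjusted p was 1 throughout. With library totals as the scaling, the sign turned for Pfkl, Pkm, Slc2a3 and Pfkfb3. In DN4 they were Pfkm at 0.23 (SE 0.117), Aldoa at -0.24 (SE 0.128), Slc2a3 at -0.23 (SE 0.135), Pkm at -0.24 (SE 0.147) and Pdk3 at -0.21 (SE 0.127), with adjusted p-values of 0.883 to 0.899. Groups overlapped for Aldoa, where the KO-labelled value of KO49, 246 CPM, lay above the 234 CPM of WT40. For Pfkm, the DN4 libraries of KO45, KO49 and KO51 had 45, 42.3 and 48.4 CPM and those of WT05, WT40, WT46 and WT48 had 37.4, 43.6, 41.0 and 35.5 CPM, also overlapping.

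For Ldha in DN4 the log2 fold change was -0.14 with a standard error of 0.198, and for Hk2 it was 0.03 with 0.226, so that differences of the size of these errors were not detectable with 3 and 4 mice. Mice also differed in sex, since Xist had 1133 to 5199 CPM in the libraries of 5 mice, all 3 KO-labelled ones among them, and at most 0.195 CPM in those of WT40 and WT46. For the 4 X-linked genes of the list, Pfkfb1, Pgk1, Pdha1 and Pdk3, sex and genotype were thus not balanced.

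**Figure D5:**
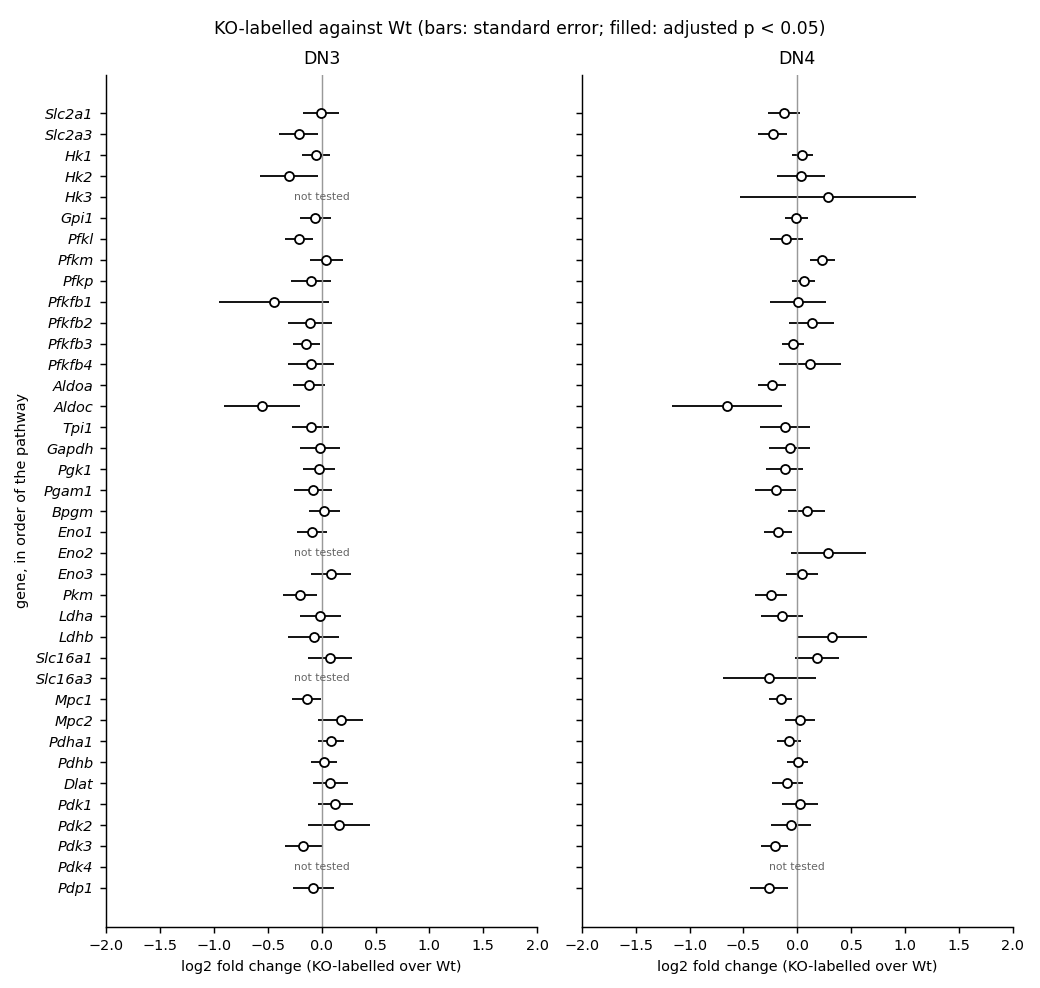
Log2 fold change of KO-labelled over Wt libraries (x axis) of each gene of the list in pathway order (y axis), in DN3 (left) and DN4 (right). Points are fitted values with their standard error, and a filled point would mark an adjusted p under 0.05. No point is filled, and the values run from -0.55 to 0.18 in DN3 and from -0.65 to 0.32 in DN4, both lowest for Aldoc.

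The third comparison tested whether the change from DN3 to DN4 itself differed between KO-labelled and Wt mice, as an interaction term fitted to the 13 libraries together. It called 0 of 37 genes of the list (0% of all 13361 genes passed), 0 had an unadjusted p under 0.05, and the smallest was 0.196, for Pdha1 (difference of log2 fold changes -0.20, SE 0.148). The other genes with the smallest p were Dlat at -0.21 (SE 0.225), Pfkm at 0.15 (SE 0.178), Pdp1 at -0.22 (SE 0.261) and Ldhb at 0.35 (SE 0.440), with an edgeR adjusted p of 1 in each case. For Hk2 the difference was 0.30 (SE 0.384), for Pfkp 0.12 (SE 0.208), for Eno3 -0.08 (SE 0.220) and for Slc16a3 -0.55 (SE 0.854). Slc2a3, Eno2, Pdha1 and Pdk1, called in KO-labelled mice alone by edgeR's separate fits without the block, did not pass this test of the difference. DESeq2 and the joint fit of the 13 libraries called Slc2a3 and Eno2 in Wt mice too. The joint fit did not call Pdha1 or Pdk1 in KO-labelled mice.

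Other genes of the same pathways, from lists chosen alongside the 38, are given as counts with the genes that passed. These lists are small and were chosen with results of these data known, and their counts stand beside 13.4% higher and 9.43% lower among all genes in Wt mice and 11.2% and 7.34% in KO-labelled mice. Of 9 tested genes of glucose entry and storage, 3 rose in Wt mice, namely Slc2a6, Slc2a8 and Galm, and 1 in KO-labelled mice, Slc2a6. Slc2a6, a lysosomal hexose transporter gene, had 0 counts in all 6 DN3 libraries, so that it entered the test through DN4 in both genotypes, and a mean of 2.99 CPM in Wt and 1.98 CPM in KO-labelled DN4 libraries. Galm, galactose mutarotase, had a log2 fold change of 1.66 in Wt (SE 0.270). Of the scarcer lower glycolysis isozymes, Pgam2 and the gluconeogenic phosphatase gene Fbp1 fell in KO-labelled mice, from means of 4.81 to 0.623 CPM and of 3.79 to 0.355 CPM (2 of 3 tested), and 0 of 2 tested changed in Wt mice, where Pgam2 and Fbp1 did not pass the filter and went from 3.28 to 0.253 and from 2.88 to 0.119 CPM. In KO-labelled mice both entered the test only through DN3, where they are high, so these counts differ between the genotypes through the filter.

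Emb, which encodes embigin, a chaperone of monocarboxylate transporters, rose in Wt mice from a mean of 82.9 to 153 CPM (log2 fold change 0.86, SE 0.125, adjusted p = 0.00214 by edgeR's test), 1 of 5 tested genes of lactate handling. In KO-labelled mice it went from 96.2 to 139 CPM and did not pass (adjusted p = 0.0901), and 0 of 5 passed. Bsg, the partner of MCT1 and MCT4, was at 154 and 156 CPM in Wt. Of 18 genes of pyruvate oxidation and the tricarboxylic acid cycle, Pdp2 and Suclg2 fell in Wt and Suclg2 in KO-labelled mice, by 0.45 and 0.63 on the log2 scale for Suclg2. Of 8 genes of the pentose phosphate pathway, Pgls and Tkt fell in Wt mice and 0 changed in KO-labelled mice.

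Regulators of glycolysis moved in both directions. Of 16 tested in Wt mice, Txnip, Esrra and Foxo1 rose and Myc and Mycn fell, and of 17 tested in KO-labelled mice, Arnt, Epas1 and Foxo1 rose and Myc and Mycn fell. Epas1 had a mean of 0.0275 CPM in KO-labelled DN3 libraries and was tested only because DN4 was high, at 2.68 CPM. Myc, a transcription factor that drives many glycolytic genes, went from a mean of 390 to 200 CPM in Wt and from 425 to 222 CPM in KO-labelled libraries, with log2 fold changes of -0.98 (SE 0.191) and -0.96 (SE 0.232). Foxo1, a factor active when PI3K signaling is low, had a log2 fold change of 2.43 in Wt and 2.15 in KO-labelled mice. Txnip, an inhibitor of glucose uptake, rose in Wt mice by 1.39 (SE 0.271) and its KO value of 0.71 did not pass. Hif1a, the factor of the hypoxia response, had 0.33 (SE 0.113, adjusted p = 0.0685) and 0.06, not called by edgeR's test.

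Of 11 other hypoxia-responsive genes, 3 rose and 3 fell in Wt mice, and 1 rose and 3 fell in KO-labelled mice. Vegfa, Car9 and Ndrg1 fell in both. Ndrg1 went from a mean of 110 to 42.4 CPM in Wt and from 119 to 44.6 CPM in KO-labelled libraries, with log2 fold changes of -1.41 and -1.44. P4ha2 rose in both, and Ankrd37 and Ddit4 in Wt. P4ha2 was scarce, with means of 0.630 and 0.192 CPM in Wt and KO-labelled DN3 libraries, and entered the test through DN4, at 2.38 and 2.10 CPM. In the comparisons of the genotypes, 0 genes of any of these lists were called in DN3 or DN4.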

How the data were processed

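RNA was measured by sequencing in 13 libraries of sorted DN3 and DN4 thymocytes. The authors prepared stranded mRNA libraries, trimmed the reads (Cutadapt), aligned them (STAR) and counted reads per gene (featureCounts), against mm10 by the submitters' processing notes. The deposited table holds raw counts per gene, not normalized. Their versions, the annotation and the strand setting of the counting are not given in the sources used here, and 0 columns were unused. Genes overlapping on opposite strands were therefore not told apart with certainty. Gene names, coordinates and lengths came from GENCODE M21 on GRCm38 (47310 identifiers found without version).

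From the counts, genes were filtered with filterByExpr (minimum count 10) and each comparison was fitted over all genes of its own groups with edgeR 4.0.16 in R 4.3.3 (TMM scaling, quasi-likelihood test, Benjamini-Hochberg adjustment, threshold 0.05). The genes of the list, the other lists and the tests were chosen with earlier results of these data known, and 11 ribosomal RNA-like genes were listed after the counts were seen. Named were all 38 genes, fold changes for genes called in either genotype and their isozymes (others only in the paired fit or as ranges), and between the genotypes the 5 with the smallest p. Isozyme shares use counts per kilobase of merged exons and carry no test.

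DN3 and DN4 libraries of a mouse share its number in the labels. Over 13361 genes their deviations from the group means correlated at 0.460, 0.213 and 0.332 in KO45, KO49 and KO51 and at 0.145, 0.124 and 0.182 in WT05, WT46 and WT48. Libraries of different mice were not correlated for comparison, so the pairing rests on the labels. No 2 libraries of a group were duplicates (smallest chi-squared per degree of freedom 6.19 over 15 pairs), and replicates are separate mice. The pipeline was tested on simulated data. Alternatives were DESeq2 1.42.0 (Wald test and size factors), library totals, TMM without ribosomal RNA genes, other filters, a joint fit of the 13 libraries, omission of single libraries, and the mouse as a replicate block. Library totals of 5926848 to 14148661 counts and the number of mice limit the precision. Of the cell type markers, 2 genes are not reported here and were left out of the sums. The measurements of the study other than RNA sequencing were not analysed here.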

Additional observations from a re-analysis of the deposited data

Results flagged for a closer look

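All 38 genes were checked in the 4 Wt DN4 libraries, the only group large enough, for a library that stood far from the rest of its group, and chance alone marks about 1 group in 20. In 2 genes a library was marked, both times the DN4 library of WT05. Eno3 was at 42.1 CPM there and at 28.9 to 31.0 CPM in WT40, WT46 and WT48, a gap of 0.835 of the whole range. The rise of Eno3 from DN3 to DN4 was called without this library too. Pdk4 was at 0.0832 CPM there, which is 1 count, and at 0 in the other 3 libraries, so that the mark rests on a single read.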

How the results depend on the processing

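In Wt mice 7 and in KO-labelled mice 9 genes of the list were called from DN3 to DN4. With the mouse as a replicate block the paired counts were 7 and 17, with library totals 4 in Wt, and with at least 10 counts in every library 5 in KO-labelled mice; the other fixed alternatives stayed within 1.5 times. With each library left out, the Wt count was 4 to 8 (4 without the DN3 library of WT46 or of WT48) and the KO count 4 to 7 (4 without the DN3 library of KO49 or of KO51, 5 without the DN4 library of KO45 or of KO49). A paired fit of WT46 and WT48 alone, chosen after seeing the data because the DN3 library of WT05 stands apart, called 6 (4 higher, 2 lower). The counts for KO-labelled against Wt in DN3 and DN4 and for the interaction were 0 under every alternative and 0 to 0 with single libraries left out. Among all genes, the Wt stage count moved from 2903 to 1782 with library totals, and the KO stage count from 2338 to 4499 with the block. DESeq2 called 3 genes in DN3, 51 in DN4 (7 by edgeR, 11 without a filter) and 2 for the interaction.

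Signs turned with library totals as the scaling for Hk1 (0.099), Pdha1 (0.0473) and Slc16a1 (0.0042) in Wt mice, for Hk1 in KO-labelled mice (-0.0060), for Pfkfb3 (0.123), Slc2a3 (0.0752), Pkm (0.0311) and Pfkl (0.0055) between the genotypes in DN3, and for Pfkm in the interaction (-0.0242). Hk1 in KO-labelled mice also turned with at least 10 counts in every library (-0.0017) and, with single libraries left out (range -0.0354 to 0.00982), without DN3 KO45 (-0.00242), DN3 KO49 (-0.0335), DN4 KO45 (-0.0354) or DN4 KO49 (-0.0137). None of these was called. The cause was not tested.

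Isozyme shares by the longest transcript were, for Hk2, 19.0%, 9.36%, 15.9% and 9.25%, and for Eno3, 6.34%, 9.89%, 7.14% and 11.3% in DN3 and DN4 of Wt and of KO-labelled mice; merged exons of some genes are much longer than any transcript. With each library left out, in the same order, the shares were 24.9% to 32.8%, 15.0% to 16.3%, 23.6% to 28.6% and 13.6% to 18.1% for Hk2, 12.0% to 14.5%, 24.2% to 25.2%, 12.7% to 14.7% and 23.9% to 25.8% for Pfkp, 13.2% to 14.4%, 19.8% to 21.5%, 13.7% to 16.5% and 22.7% to 23.7% for Eno3, and 0.0683% to 0.199%, 2.16% to 2.89%, 0.136% to 0.194% and 1.65% to 2.29% for Slc16a3. Depth limits Slc16a3, Eno2, Hk3 and Pdk4, whose DN3 libraries held few counts.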
